A study of Mus musculus with 4 samples.

Results

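Transcripts of 8 genes that act from the onset of anaphase to the final separation of daughter cells were followed in CT26 cells treated with riluzole. The genes were Ube2c, Pttg1 and Espl1, which act in the trigger of anaphase, Prc1, Ect2 and Anln, which act at the spindle midzone and in cytokinesis, and the spindle genes Nusap1 and Aspm. They were chosen by name with earlier results of these data known, and all 8 are among the 4295 genes, 1780 higher and 2515 lower with riluzole, that the authors' deposited tables list at a p-value under 0.05. Presence in those tables therefore already required a difference between the groups, and each gene's own call is given below as a description of its size and direction.

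CT26 is a mouse colon carcinoma line, labelled as wild type, grown in serum-supplemented DMEM. The 2 control libraries came from cells given DMSO, the solvent, and the 2 riluzole libraries from cells given 25 µM riluzole, a drug that dampens glutamate signalling, both for 24 h. The comparison asks how riluzole alters the transcriptome of these cells. Whether replicates were grown apart is not stated in the labels; the p-values below therefore reflect spread among these 4 libraries alone, which may be technical. In such bulk cultures fewer cells in mitosis and less RNA per cell cannot be told apart. Library totals implied by the deposited FPKM (fragments scaled by gene length and library total) ran from 15803444 to 20562946, of which listed genes held 57.2% to 63.2%. Of 7 epithelial markers, Krt8 and Krt18 were listed, whereas 3 of 4 fibroblast markers, 1 of 5 immune markers (Cd68) and 0 of 3 endothelial markers were listed. Both keratins were higher with riluzole, Krt8 at 3.36 to 4.39 normalised counts in the controls and 15.5 to 17.7 with riluzole (log2 fold change 2.08) and Krt18 at 509 to 529 and 715 to 764 (0.51). Cd68 was also higher (0.70), and the fibroblast markers Col1a1, Col1a2 and Pdgfrb were lower (-0.34, -0.16 and -0.36). Col1a2 had 22541 to 24585 normalised counts in the controls and 20801 to 21442 with riluzole. Col1a1 had 1667 to 1943 and 1348 to 1493, and Pdgfrb 764 to 854 and 627 to 637. Being listed shows a difference between the groups and not the level of a marker. The part of such genes in the results below was not tested.

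Anaphase begins when the anaphase-promoting complex (APC/C), a ubiquitin ligase, marks securin for destruction and so frees separase to cut the cohesin that holds sister chromatids together. Ube2c encodes the ubiquitin-conjugating enzyme that starts chains for the APC/C, Pttg1 encodes securin and Espl1 encodes separase. PRC1 then bundles antiparallel microtubules into the midzone, ECT2 activates the GTPase RhoA at the cell equator, and anillin, the product of Anln, links the actin and myosin ring to the membrane. NUSAP1 bundles microtubules near chromosomes, and ASPM focuses microtubules at the spindle poles. Many such genes are transcribed late in the cell cycle through promoter elements named CHR (cell cycle genes homology region) and CCAAT, bound by the DREAM and MuvB complexes and by NF-Y.

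The promoters of the 8 genes were matched by symbol in RefSeq (GRCm38.p6), each as a window of 300 bases around the annotated start; for Prc1 and Ect2, which have 2 annotated starts, the first was used. A CHR element, TTTGAA or TTCGAA on either strand, was present in 6 of the 8, and in 19.2% of all 32851 promoter windows of this length. Pttg1 and Nusap1 held none in their windows. CCAAT on either strand was present in 5 of the 8 and in 37.4% of all windows. The E2F strings TTTCCCGC, TTTGGCGC and TTTCGCGC were in 0 of the 8 and in 1.84% of all windows. The CHR strings were in 15.5% of the windows of listed lower genes and in 13.5% of those of listed higher genes. TTTGAA alone was in the same 6 genes and in 17.9% of windows. Sequences are shown for Pttg1, the gene that was higher with riluzole, and for the 4 lower genes that hold both elements in the stretch shown. Each covers 100 bases before and 30 after the start, 5′ to 3′ on the gene's strand, and capitals mark CHR matches (TTTGAA, or TTCAAA where it lies on the other strand) and CCAAT matches (or ATTGG).
Pttg1 (chr11:43425952-43426081, minus strand): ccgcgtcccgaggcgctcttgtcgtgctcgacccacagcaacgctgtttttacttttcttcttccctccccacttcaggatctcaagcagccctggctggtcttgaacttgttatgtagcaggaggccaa
Espl1 (chr15:102296193-102296322, plus strand): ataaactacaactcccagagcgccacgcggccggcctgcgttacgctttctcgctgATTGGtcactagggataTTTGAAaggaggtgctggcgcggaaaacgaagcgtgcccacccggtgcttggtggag
Ube2c (chr2:164769829-164769958, plus strand): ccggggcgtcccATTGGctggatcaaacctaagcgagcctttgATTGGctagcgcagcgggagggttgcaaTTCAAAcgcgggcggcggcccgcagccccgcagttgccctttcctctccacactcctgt
Prc1 (chr7:80294351-80294480, plus strand): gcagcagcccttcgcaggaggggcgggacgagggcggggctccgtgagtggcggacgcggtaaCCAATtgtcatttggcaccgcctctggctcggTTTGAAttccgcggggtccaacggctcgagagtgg
Aspm (chr1:139454673-139454802, plus strand): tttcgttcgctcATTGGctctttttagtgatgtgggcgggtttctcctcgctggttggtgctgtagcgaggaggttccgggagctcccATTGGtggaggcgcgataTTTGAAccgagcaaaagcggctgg
The CHR match began 27 bases before the start in Espl1, 29 before it in Ube2c and 5 before it in Prc1, and in Aspm it began at base 7, counting the start as base 1. In Espl1, Ube2c, Prc1 and Aspm a CCAAT match stood upstream of the CHR, the nearest ones beginning at -44, -57, -37 and -12. Anln held 2 CHR matches after its start, at bases 22 and 29, and no CCAAT. Ect2 held 2 CHR matches, at -114 and 40, and 3 CCAAT matches, at -96, -55 and 2. A match is a string in a window and was not tested as a binding site, and no match says only that these letters are not in that window.

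**Figure D1:**
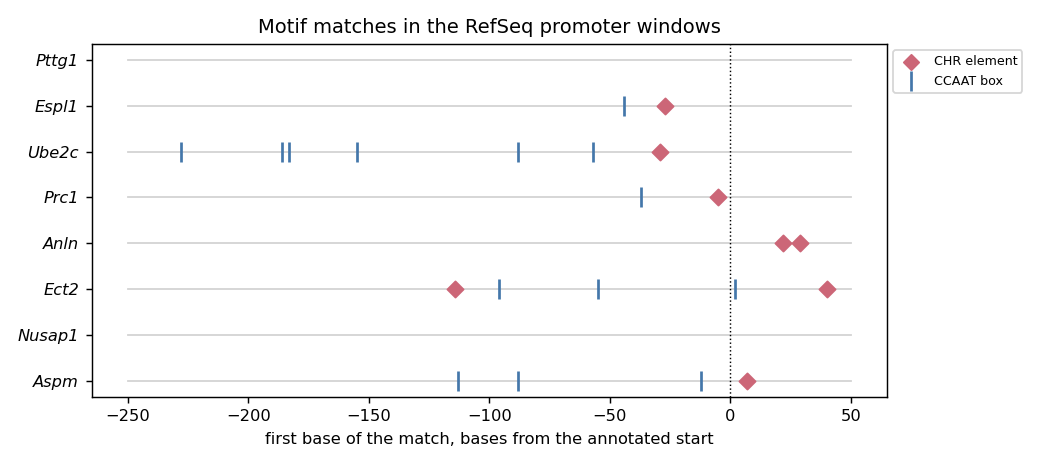
Positions of CHR (diamonds) and CCAAT (ticks) matches in the RefSeq promoter window of each of the 8 genes; the x axis is the distance in bases of the first base of a match from the annotated start (dotted line), negative upstream. CHR matches lie between -114 and 40 in 6 genes, and the lines of Pttg1 and Nusap1 carry no mark.

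With riluzole, 7 of the 8 transcripts fell and 1, Pttg1, was higher. Espl1 dropped by 21.2%, the least of the 7, and Ube2c dropped by 42.7% and Prc1 dropped by 41.7%, with a median log2 fold change of -0.59 over the 7, and Pttg1 was 1.23-fold higher. All 8 passed edgeR's quasi-likelihood test at an adjusted p of 0.05 (Benjamini-Hochberg over 12601 genes). The fit covered only the 4295 listed genes, of which it called 58.2% lower and 41.3% higher. These calls equal 19.8% and 14.1% of the 12601 genes implied by the authors' adjustment, most of which are not analysed here. In the authors' deposited table, the 7 lower genes also had an adjusted p under 0.05, as did 44.7% of listed genes in that direction, whereas Pttg1 did not (adjusted p = 0.0863); that table called 28.3% of listed genes, or 9.63% of those 12601, higher. Since the tables hold only genes with a low p, the call of each gene carries no independent weight. Its size and direction are what the values add. The spread was also estimated from these genes alone, and genes listed for a low p tend to have a small spread within groups. The SE and p-values of the edgeR fit may therefore be too small. Among the listed lower genes, whose median log2 fold change was -0.30, the falls of Ube2c and Prc1 were exceeded by 3.30% and 3.82% of genes, and that of Espl1 by 39.2%.

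**Figure D2:**
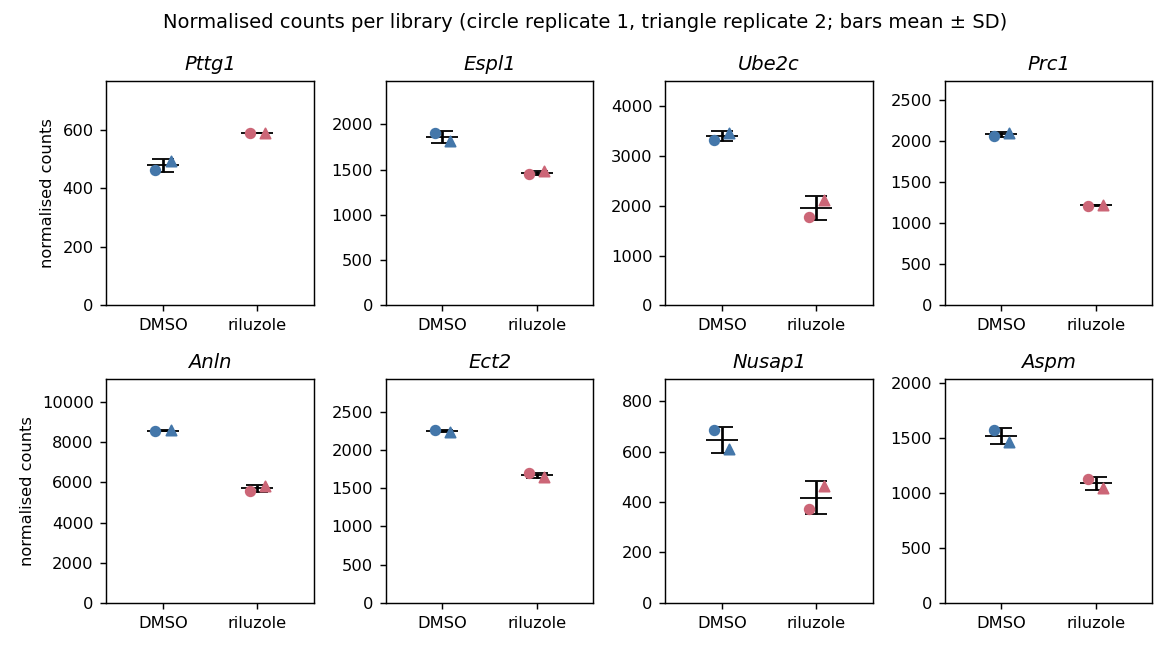
Normalised counts (y axis, starting at 0) of the 8 genes in each library of the DMSO and riluzole groups; circles are replicate 1, triangles replicate 2, and the black bars are the mean ± SD (n = 2). Both riluzole libraries lie below both controls for 7 genes and above them for Pttg1.

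The conjugating enzyme of the APC/C fell in both riluzole libraries. Ube2c (ENSMUSG00000001403; chromosome 2, 164611818 to 164620742, mm39, plus strand) had 3333 and 3469.5 normalised counts, that is counts divided by the size factor of the library, in control replicates 1 and 2, compared with 1782 and 2126 for the riluzole pair. Both riluzole libraries lay well below both controls, and they also differed from each other. Its log2 fold change was -0.80 ± 0.06 (SE), with an edgeR Benjamini-Hochberg adjusted p of 1.77e-12. The ratio of riluzole replicate 2 to replicate 1 was 1.19, with an exact 95% counting interval of 1.12 to 1.27, which covers counting error only. The log2 fold change was -0.68 without riluzole replicate 1 and -0.93 without riluzole replicate 2, so the size of the fall differed between the libraries and its direction did not.

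Securin and separase transcripts moved in opposite directions. Pttg1 (ENSMUSG00000020415; chromosome 11, 43311077 to 43317078, minus strand), which encodes the inhibitor of separase, had 464 and 494 normalised counts in the controls and 589.9 and 591 with riluzole. The 2 riluzole libraries were nearly equal and above both controls, which differed by no more than their counting error (ratio 1.07, exact 95% interval 0.939 to 1.21). Its log2 fold change was 0.30 ± 0.08 (SE, edgeR Benjamini-Hochberg adjusted p = 0.00464). The authors' deposited table gave it the same log2 fold change, 0.30, but an adjusted p of 0.0863, so the higher call for Pttg1 depended on the fit. Espl1 (ENSMUSG00000058290; chromosome 15, 102204701 to 102232792, plus strand), the protease gene, had 1908 and 1814 normalised counts in the controls and 1449 and 1479.6 with riluzole. Its groups did not overlap either, and its fall was the smallest of the 7, with a log2 fold change of -0.34 ± 0.05 (SE; edgeR adjusted p = 2.26e-06). The size of both changes depended on the scaling. With size factors computed by DESeq2 on the listed genes alone, which moved the median of all listed genes up by 0.17, the estimates became 0.46 for Pttg1 and -0.18 for Espl1.

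The microtubule bundler of the midzone also fell, by a like amount in both riluzole libraries. Prc1 (ENSMUSG00000038943; chromosome 7, 79944198 to 79966007, plus strand) had 2065 and 2104 normalised counts in the controls and 1214 and 1219.6 with riluzole. Replicates of both groups agreed within counting error, with ratios of 1.02 and 1.00. The log2 fold change was -0.78 ± 0.05 (SE; edgeR Benjamini-Hochberg adjusted p = 3.15e-13) and ran only from -0.79 to -0.76 when each library was left out. Exons of Prc1 overlap those of Rccd1 on the opposite strand over 911 bases (GENCODE M21), those of Ube2c overlap Tnnc2 over 592 bases, and those of Nusap1 overlap Oip5 over 172 bases. No label states whether counting used strand, so reads from these overlaps cannot be assigned to either gene and the levels of Prc1, Ube2c and Nusap1 are less certain.

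The genes that place and build the cleavage furrow both fell, Anln more than Ect2. Anln (ENSMUSG00000036777; chromosome 9, 22243308 to 22300484, minus strand) had the highest counts of the 8 genes, 8560.2 and 8579 normalised counts in the controls and 5577 and 5813 with riluzole. The controls were nearly identical and the gap to the riluzole libraries was many times the spread within either group. Its log2 fold change was -0.59 ± 0.04 (SE; edgeR Benjamini-Hochberg adjusted p = 1.17e-12). Ect2 (ENSMUSG00000027699; chromosome 3, 27151371 to 27208027, minus strand), the RhoA activator gene, had 2255 and 2233 normalised counts in the controls and 1695 and 1649 with riluzole. Its groups did not overlap, and its replicates agreed within counting error in both groups. Its log2 fold change was -0.42 ± 0.05 (SE; edgeR adjusted p = 3.16e-08), or -0.26 under that DESeq2 scaling.

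The spindle genes also fell, with a wider spread for Nusap1. Nusap1 (ENSMUSG00000027306; chromosome 2, 119448779 to 119481725, plus strand) had 684 and 610.5 normalised counts in the controls and 371 and 464 with riluzole. It was the member whose replicates differed beyond counting error in both groups, by a ratio of 0.893 in the controls (exact 95% interval 0.801 to 0.996) and 1.25 with riluzole (1.09 to 1.44), yet all riluzole values lay below all control values. Its log2 fold change was -0.63 ± 0.10 (SE; edgeR Benjamini-Hochberg adjusted p = 3.34e-06), and -0.48 without riluzole replicate 1 (adjusted p = 0.00212). Aspm (ENSMUSG00000033952; chromosome 1, 139382510 to 139421829, plus strand) had 1565 and 1463 normalised counts in the controls and 1127.5 and 1046 with riluzole. The groups were again apart, and the log2 fold change was -0.47 ± 0.06 (SE; edgeR adjusted p = 9.85e-08), or -0.31 under the DESeq2 scaling.

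**Figure D3:**
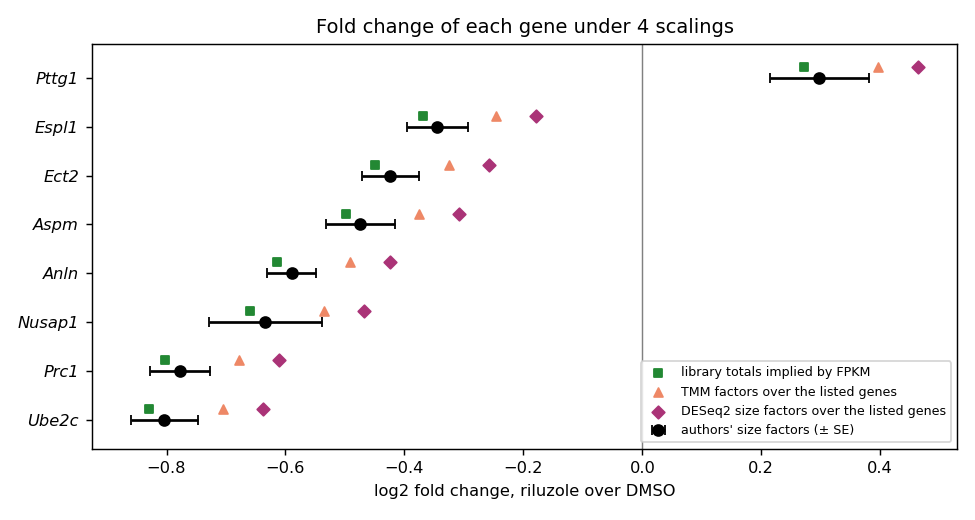
Log2 fold change (x axis, riluzole over DMSO) of each of the 8 genes with the authors' size factors (circles, ± SE) and with 3 other scalings. All 4 scalings keep 7 genes below 0 and Pttg1 above 0; TMM and DESeq2 factors computed on listed genes move every gene to the right, by 0.10 and 0.17 in the median over all listed genes.

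The scaling could be set aside by taking ratios of members within a library, since the size factor and the library total cancel. Per length, Pttg1 stood at 1.06 and 1.19 times the FPKM of Espl1 in the control libraries and at 1.78 and 1.75 times in the riluzole libraries. The ratio of the Pttg1 to the Espl1 transcript was thus 1.57-fold higher with riluzole. Its mean was 1.13 ± 0.09 in the controls and 1.76 ± 0.02 with riluzole (SD, n = 2). Levels of the 2 proteins were not measured here. The ratio of Pttg1 to Ube2c went from 0.183 ± 0.003 to 0.396 ± 0.049, a 2.15-fold difference. That of Pttg1 to Prc1 went from 0.945 ± 0.030 to 2.00 ± 0.004, a 2.11-fold difference. The folds do not depend on gene length, but the ratios themselves rest on the deposited lengths. Per length of the longest coding transcript, Pttg1 stayed below Prc1 in both groups (16.5 against 39.8 in the controls, 20.0 against 22.8 with riluzole). The riluzole ratios exceeded both control ratios for all 7 partners of Pttg1, where the fold ran from 1.57 to 2.15. That separation was fixed beforehand, since Pttg1 was above both controls and each partner below them, so only the sizes of the ratios add to the values above. The 7 ratios also share Pttg1 and are not independent. An exact two-sided permutation test with 2 libraries against 2 cannot give a p below 0.333, and that was its value for the ratio to Espl1.

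**Figure D4:**
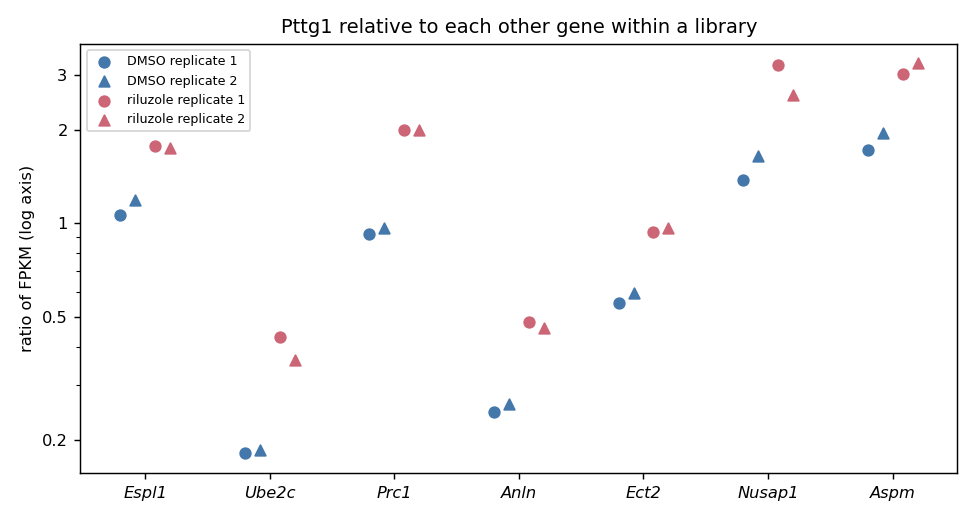
FPKM of Pttg1 divided by the FPKM of each of the other 7 genes within each library (y axis, log scale); blue marks DMSO, red riluzole, circles replicate 1 and triangles replicate 2. For each partner both red points lie above both blue points, from 1.57-fold for Espl1 to 2.15-fold for Ube2c.

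Ratios among the 7 falling genes were not fixed in this way. Of the 21 within-library ratios between them, 14 had both riluzole values outside the range of the controls on the same side and 7 overlapped. Of all 4295 listed genes, 58.5% had both riluzole libraries below both controls in normalised counts and 41.4% above. That followed from the low p that put these genes in the tables. Those shares concern single genes and give no baseline for ratios. The 21 ratios also share 7 genes and are not independent. The ratio of Ube2c to Prc1 overlapped between the groups, and so did that of Anln to Aspm, while the ratio of Prc1 to Anln fell to 0.878 of its control value. Ratios with Nusap1 overlapped in 4 of the 6 pairs, where its replicates were widely spread. The falls of Ube2c and Prc1 could therefore not be ordered, and without riluzole replicate 1 that of Prc1 was the larger (log2 fold change -0.77 against -0.68). Nor could those of Prc1 and Nusap1, whose ratio also overlapped.

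Levels per length placed Ube2c and Anln at the top in both groups. In the controls, mean FPKM was 75.5 ± 2.31 for Ube2c, 54.6 ± 0.20 for Anln and 24.1 ± 0.11 for Ect2 (SD, n = 2). Below them came Prc1 at 14.6 ± 0.22, Pttg1 at 13.8 ± 0.65, Espl1 at 12.3 ± 0.42, Nusap1 at 9.21 ± 0.72 and Aspm at 7.54 ± 0.34. The ranges of neighbours in that order did not overlap, though Prc1 and Pttg1 were close. With riluzole, Pttg1 passed Prc1 and, at 16.8 ± 0.003 FPKM, lay just under Ect2 at 17.6 ± 0.36. Espl1 at 9.50 ± 0.13 also passed Prc1 at 8.40 ± 0.02, and the ranges of Nusap1 (5.84 ± 0.91) and Aspm (5.32 ± 0.29) overlapped. The order rests on the gene lengths used for FPKM. The deposited length of Prc1 is 8225 bases, whereas its longest coding transcript in GENCODE M21 has 3026. Per length of the longest coding transcript, an alternative added after the values were seen, Anln led Ube2c in both groups (107 against 89.6 in the controls), and Prc1 stood above Pttg1 in both, at 39.8 against 16.5 in the controls and 22.8 against 20.0 with riluzole.

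Other genes of the same processes were taken from 6 lists, of which 54 of 101 genes were in the deposited tables. Of these 54, edgeR called 45 lower and 8 higher, against 58.2% and 41.3% of all listed genes, with a median log2 fold change of -0.26 against -0.19 over all listed genes. The 47 genes not in the tables are not analysed here, so the counts describe only the members that had a low p. The authors' deposited table had an adjusted p under 0.05 for 36 of the 54 lower and 5 higher. Under the DESeq2 scaling described for Pttg1, 19 of the 54 were called lower and 9 higher (29 and 9 with TMM), and the lower calls over all listed genes went from 2501 to 1042.

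Of 19 genes of the APC/C and its regulators, 7 were listed, each of them lower, at a median of -0.40 on the log2 scale. Under the DESeq2 scaling 4 of the 7 were called lower, at a median of -0.23. The subunit genes Cdc27 (log2 fold change -0.48) and Anapc16 (-0.48) and the chain-extending enzyme gene Ube2s (-0.40), the partner of Ube2c, had the smallest adjusted p values, 2.31e-09, 1.75e-07 and 5.77e-09 in edgeR with Benjamini-Hochberg adjustment. Ube2s, for instance, went from 5508 ± 129 to 4180.3 ± 109 normalised counts (SD, n = 2); its exons overlap Rpl28. Of 15 genes of cohesin, the substrate of separase, and of its loading and release, 9 were listed, again each lower, at a median of -0.28. Under the DESeq2 scaling 4 of the 9 were called lower, at a median of -0.11. Rad21, the subunit that separase cuts, went from 7459 ± 54.7 to 6170.3 ± 60.3 normalised counts, a log2 fold change of -0.27. The release factor gene Wapl (-0.28) and Pds5a (-0.32), whose product binds cohesin, fell by similar amounts, but Wapl lost its call under the DESeq2 scaling (edgeR adjusted p = 0.0593).

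Of 12 genes of the central spindle and RhoA activation, 10 were listed, 9 lower and 1 higher, with a median log2 fold change of -0.25. Under the DESeq2 scaling 3 were called lower and the median was -0.08. Arhgap11a, a RhoA regulator gene, went from 1899 ± 126 to 1306 ± 17.4 in mean normalised count (SD, n = 2; log2 fold change -0.54), Plk1, the kinase that recruits ECT2 to the midzone, from 1098 ± 25.6 to 751 ± 61.2 (-0.55), and the midzone kinesin gene Kif14 from 675 ± 71.7 to 441 ± 23.6 (-0.61). Kif20a, a midzone kinesin gene, ran the other way (log2 fold change 0.20); it was not called without control replicate 2 (edgeR Benjamini-Hochberg adjusted p = 0.0753) and had an adjusted p of 0.0524 in the authors' deposited table. Its exons overlap Cdc23. The centralspindlin genes Kif23 and Racgap1, whose products bind ECT2 at the midzone, were named for that role after their values were seen. They had log2 fold changes of -0.18 and -0.20. The DESeq2 scaling moved the median of all listed genes up by 0.17, close to the size of both falls. Kif23 had an adjusted p of 0.102 in the authors' deposited table, and Racgap1 has a near-identical copy.

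Lists for the later steps held genes in both directions. Of 17 genes of the contractile ring and septins, 8 were listed, 5 called lower, 2 higher and 1, the actin cross-linker gene Actn4 (log2 fold change 0.09, edgeR Benjamini-Hochberg adjusted p = 0.106), not called; it is named because it was the exception, after its value was seen. The midbody kinase gene Cit fell from 1084 ± 9.58 normalised counts to 683 ± 3.67 (SD, n = 2; log2 fold change -0.67), the actin nucleator gene Diaph3 had a log2 fold change of -0.29, and Septin9 rose from 2155 ± 48.5 to 2756 ± 117 (0.35). Septin7 was higher by 0.15 on the log2 scale, and was not called without riluzole replicate 2 (edgeR Benjamini-Hochberg adjusted p = 0.132), by DESeq2's Wald test (0.0507) or in the authors' deposited table (0.0724). Diaph3, which has a near-identical copy, lost its call under the DESeq2 scaling (edgeR adjusted p = 0.20). Of 18 genes of the midbody and abscission, 8 were listed, 5 lower and 3 higher. Over all listed genes, 58.2% were called lower and 41.3% higher, and the counts of both lists are near those shares. The ESCRT-III genes Chmp2a and Chmp5, whose products belong to the machinery that cuts membrane necks, rose by 0.41 and 0.40, and Tsg101, of the ESCRT-I complex, fell by 0.34 on the log2 scale, from 2765 ± 14.6 to 2187 ± 75.7 normalised counts; it has a near-identical copy. The medians of the contractile ring list (-0.12) and the abscission list (-0.15) turned to 0.046 and 0.019 under the DESeq2 scaling, where 1 gene in each list was called lower, so neither list had a direction that held under all scalings.

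Of 20 genes of the spindle pole and of microtubule bundling, 12 were listed, 10 lower and 2 higher, with a median log2 fold change of -0.37. Under the DESeq2 scaling 6 were called lower, at a median of -0.21. Kpna2, which encodes the importin that holds the spindle factor TPX2, fell from 3011 ± 118 normalised counts to 1909 ± 125 (SD, n = 2; log2 fold change -0.66), and Tacc3 and Spag5, which encode spindle microtubule proteins, had log2 fold changes of -0.59 and -0.52. Calm3, a calmodulin gene whose product binds ASPM, was called higher (0.25). Kpna2 and Calm3 have near-identical copies and Tacc3 overlaps another gene, so their levels are less certain.

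**Figure D5:**
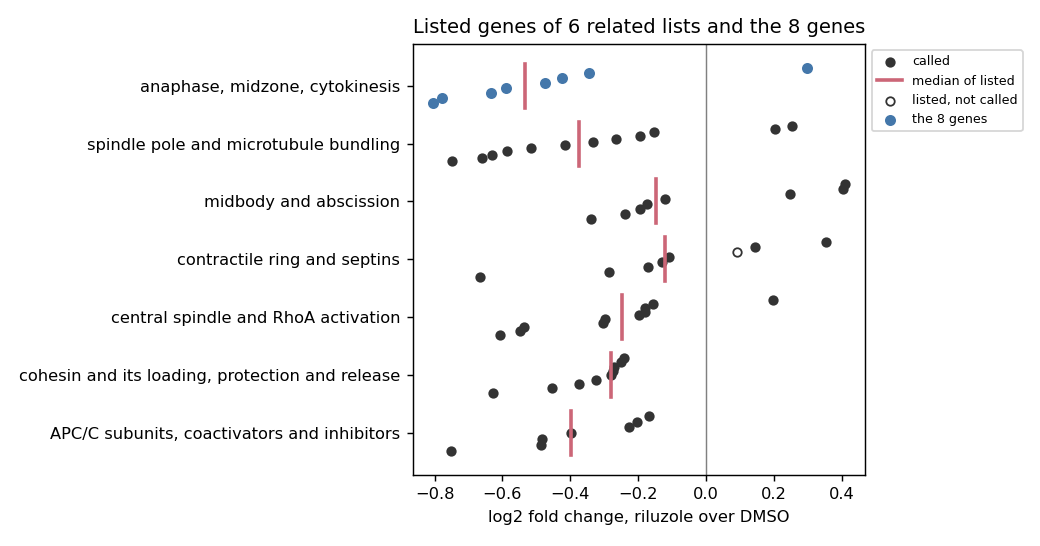
Log2 fold change (x axis, riluzole over DMSO) of the 54 listed genes of 6 related lists (dark points, open where not called by edgeR) and of the 8 genes (blue); red bars are medians of the listed genes. Medians run from -0.12 to -0.40 over the lists, and 8 called genes and the uncalled Actn4 lie to the right of 0.

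The listed genes most like each member were found by the distance between log2 normalised counts centred on the mean of the 4 libraries, over 3875 protein-coding genes. With 4 libraries such profiles are mostly the fold change and the replicate gap, and likeness over so few points is a description. Nearest to Pttg1 were Ccnt2 (distance 0.004, log2 fold change 0.30) and Csnk1g2 (0.018, 0.29), and nearest to Espl1 were Nup37 (0.009, -0.35) and Ldha (0.019, -0.33). For Ube2c they were Rad51ap1 (0.036, -0.83) and Cdk1 (0.057, -0.78), and for Prc1 Pla2g2e (0.030, -0.78) and Mcm10 (0.044, -0.77). Napb and Ddx39a were nearest to Anln (0.011 and 0.024), Stt3a and Hdlbp to Ect2 (0.012 and 0.014), and Vps37c and Rai1 to Aspm (0.021 and 0.037). For Nusap1, with its wide replicate gap, Cdca8 (0.075, -0.60) was among the 2 nearest genes. Cdk1, the mitotic kinase, went from 2349 ± 127 to 1371 ± 138 normalised counts (SD, n = 2) and Cdca8, a chromosomal passenger gene, from 1204 ± 91.3 to 792 ± 87.7.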

How the data were processed

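Poly-A RNA of CT26 cells was sequenced in 2 DMSO and 2 riluzole libraries, grouped by the labels. HISAT2, featureCounts 1.5.0-p3, DESeq2, edgeR and build mm39 are named in the submitters' processing notes; annotation and strand settings were not stated there. The deposited tables hold raw read counts per gene, per the file headers. They also hold normalised values, a signal that is the count over 1 size factor per library (0.911, 1.19, 1.03 and 0.904), and FPKM, both made by the authors. The authors also deposited, per the file headers, a p-value with its adjusted form and a log2 fold change. Their adjusted p was recovered within 1% for all 4218 genes with a value below 1 by Benjamini-Hochberg over 12601 genes.

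Counts of all 4295 listed genes were fitted with edgeR 4.0.16 in R 4.3.3 (quasi-likelihood F test, authors' size factors, no covariate, no filter), adjusted over 12601 genes and called at 0.05; SE is the log2 fold change over the square root of F. The code was tested on simulated data. Alternatives were TMM, DESeq2 1.42.0 size factors and Wald test, FPKM totals, a minimum mean of 10, a replicate block, and leaving out each library. Members and lists were chosen with earlier results of these data known. Genes named beyond the 8 were the 3 smallest adjusted p values per list, up to 2 that ran against it, and the 2 nearest profiles per member (mean of at least 100, pseudocount 1). GENCODE M21 and RefSeq (GRCm38) gave overlaps (at least 50 bases, bedtools 2.31.1), copies (95% identity over 200 bases, BLAST+ 2.17.0) and promoters, by identifier or symbol only; gene coordinates are mm39 from the deposited tables. Some genes that this rule names are not reported here.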

Additional observations from a re-analysis of the deposited data

How the results depend on the processing

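Each alternative setting except the authors' deposited table refitted listed genes. These genes were already chosen for a low p in these libraries, so agreement with the main fit was largely fixed beforehand. Of 88 alternative fold changes for the 8 genes (11 settings each), 87 kept direction and side of the threshold. The exception was Pttg1 in the authors' deposited table, with a log2 fold change of 0.30 and an adjusted p of 0.0863, so that 0 members were called higher there; its adjusted p was at most 0.0459 in DESeq2 and edgeR. Leaving out each library gave log2 fold changes of 0.26 to 0.35 for Pttg1, -0.38 to -0.31 for Espl1, -0.93 to -0.68 for Ube2c, -0.79 to -0.76 for Prc1, -0.62 to -0.56 for Anln, -0.44 to -0.40 for Ect2, -0.80 to -0.48 for Nusap1 and -0.53 to -0.42 for Aspm, and 7 lower and 1 higher calls each time. Within-library folds ran from 1.48 to 1.66 (Pttg1 to Espl1), 1.97 to 2.35 (Pttg1 to Ube2c) and 0.862 to 0.895 (Prc1 to Anln).

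DESeq2 size factors and TMM factors over the listed genes are centred on a table in which most genes were lower. They left 1042 and 1656 of 2501 lower calls among listed genes, which puts 63.1% and 51.8% of calls on the higher side against 41.5%. With DESeq2 size factors, lower calls were 4 in the APC/C list, 4 in the cohesin list, 3 in the central spindle list, 1 in the contractile ring list, 1 in the abscission list and 6 in the spindle pole list; with TMM they were 4 (APC/C), 5 (central spindle), 2 (contractile ring) and 2 (abscission). The medians that changed sign were 0.0461 (contractile ring) and 0.0191 (abscission), with DESeq2 size factors. DESeq2's Wald test gave 3 lower and 1 higher contractile ring calls and 2 lower abscission calls. The authors' adjusted p gave 3 and 1, and 2, and 0 higher central spindle calls. Without single libraries, the ranges were 0 to 1 higher central spindle calls (0 without control replicate 2), 1 to 2 higher (1 without riluzole replicate 2) and 3 to 4 lower contractile ring calls (3 without riluzole replicate 1), and 2 to 5 lower abscission calls (2 without riluzole replicate 1, 3 without control replicate 1). Per length of the longest coding transcript, 4 of 8 genes kept their rank in the controls and 3 with riluzole. The causes were not tested.

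Among the listed genes, same-numbered libraries did not deviate together (r = 0.08 over 3998 genes). Genes listed for a low p tend to have a small spread within groups, so this value cannot decide whether same-numbered libraries were paired. With a replicate block, calls were 1763 higher and 2510 lower, and the log2 fold changes of Pttg1, Ube2c, Prc1 and Nusap1 were 0.30, -0.80, -0.78 and -0.63; no member's call changed. The planned search for degradation motifs was not run, since no protein sequences were used here.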
